A study of Mus musculus with 24 samples.

Results

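Peptide and opioid receptors set how sensory neurons of the dorsal root ganglion respond to galanin, neuropeptide Y, cholecystokinin, melanocortins and opioid peptides. The genes described here are Gpr151, Cckbr, Mc4r, Galr1, Npy1r, Npy2r, Oprm1, Oprd1 and Oprk1, 9 of the 24421 gene symbols in the RNA-seq table and 9 of the 24411 in the table of m6A pulldown counts. They were chosen by name, with the RNA-seq injury effects measured in these data already known, so those effects are given as descriptions without p-values, and calls on them are counted only beside the share of all genes called.

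The tissue was L4/5 dorsal root ganglion of C57BL/6 mice. RNA-seq covered 4 groups of 3 libraries: wild type (WT) and Mettl14cKO, the latter with the genotype Mettl14-/- in its labels, each in a naive condition and at day 1 after sciatic nerve lesion (SNLD1). The labels do not say which Cre line or cell type carried the deletion of Mettl14, a subunit of the complex that writes N6-methyladenosine (m6A) into mRNA. MeRIP-seq, which sequences RNA pulled down with an m6A antibody beside its input, gave 2 input and 3 pulldown libraries in each of the naive and SNLD1 conditions, all wild type. miCLIP, which marks single m6A bases by read mutations at antibody crosslinks, gave 1 naive and 1 injured (SNL) site list, both wild type. The libraries titled naive carry the same treatment text as the injured ones, which covers both sham and crush, and whether naive mice had the sham is not said. Nothing in the labels states that replicates came from separate mice, so the tests speak only of the spread among libraries, which may be technical.

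All 9 receptors have 7 transmembrane helices and signal through G proteins. Most of them, the opioid, NPY and galanin receptors included, couple to inhibitory G proteins that lower cyclic AMP and close presynaptic calcium channels, which in nociceptors reduces transmitter release. Mc4r couples to the stimulatory G protein and Cckbr to Gq. Gpr151 is an orphan receptor related to the galanin receptors. After peripheral nerve injury, sensory neurons are known to change their peptide and receptor content.

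RNA-seq libraries held 5707837 to 12639160 counts and MeRIP libraries 846785 to 19653733. Mettl14 itself was at 14.2 to 18.9 CPM (counts scaled to the TMM-adjusted library total) in the 6 Mettl14cKO libraries and at 19.4 to 24.1 CPM in the 6 WT libraries, without overlap (log2 -0.46, SE 0.12, edgeR adjusted p = 0.0450 averaged over conditions). Leaving out single libraries, the call held only without Mettl14cKO naive replicate 2 (edgeR adjusted p up to 0.141 otherwise). All 8 neuronal markers were detected in every group, at a summed 8040 to 11010 CPM. In naive ganglia they summed to 8040 to 10220 CPM in Mettl14cKO and to 10440 to 11010 CPM in WT, without overlap. There 7 of the 8 had fitted values below 0 in Mettl14cKO over WT (median log2 -0.20), and 0 were called. In injured ganglia the sums overlapped, at 8340 to 10860 CPM in Mettl14cKO and 9489 to 11000 CPM in WT. The labelled tissue also held markers of other cells: the 5 satellite glia markers summed to 2053 to 3911 CPM, the 5 Schwann cell markers to 2715 to 4812 CPM, and the 5 neutrophil markers to 153 to 1555 CPM. Markers of other cells differed between the genotypes too. In injured ganglia the 5 fibroblast markers summed to 2616 to 4277 CPM in Mettl14cKO and to 1696 to 2142 CPM in WT, without overlap. Pdgfra (log2 1.43, SE 0.23, edgeR adjusted p = 0.00512) and Dcn (log2 0.97, SE 0.20, adjusted p = 0.0202) were called higher. The fibroblast markers were split, with 3 fitted values above 0 and 2 below, and a median log2 of 0.09. The satellite glia markers summed to 2053 to 2132 CPM in injured Mettl14cKO ganglia and to 2450 to 3911 CPM in injured WT ganglia, also without overlap. They too were split, with 2 fitted values above 0 and 3 below, and a median log2 of -0.11. Averaged over conditions, Pdgfra and Dcn were again called higher in Mettl14cKO. The neuronal marker Elavl4 (log2 -0.41, SE 0.10, edgeR adjusted p = 0.0414) and the satellite glia marker Fabp7 (log2 -1.34, SE 0.35, adjusted p = 0.0418) were called lower. In that average 3 of 5 fibroblast, 2 of 8 neuronal and 2 of 5 satellite glia markers had fitted values above 0. The medians were 0.22, -0.13 and -0.03. Of the neutrophil markers 0 of 5 were called, although all 5 had fitted values below 0, with a median log2 of -1.04. The part of these cells in the receptor and ligand values was not tested. In bulk tissue, fewer cells of a type and less RNA per cell cannot be told apart.

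Gpr151 had the largest injury effect of the 7 receptors that passed the filter on low counts. In WT naive ganglia it stood at 4.45, 8.32 and 2.58 CPM, and at SNLD1 at 47.4, 44.1 and 71.6 CPM. In Mettl14cKO it stood at 5.98, 8.03 and 6.08 CPM in naive ganglia and at 27.5, 30.4 and 24.3 CPM at SNLD1. Every injured library lay above every naive library in both genotypes, and the 3 injured Mettl14cKO libraries lay below the 3 injured WT libraries. The log2 injury effect was 3.47 (SE 0.31) in WT, an 11.1-fold difference, and 2.04 (SE 0.31) in Mettl14cKO, and the effects differed by -1.43 (SE 0.43). Atf3, read as a check of the lesion labels, was at 8.51 to 11.1 CPM in naive and 243 to 505 CPM in injured WT ganglia. In Mettl14cKO it was at 13.4 to 21.2 CPM and then at 163 to 197 CPM. Its injured Mettl14cKO libraries thus also lay below the injured WT ones.

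**Figure D1:**
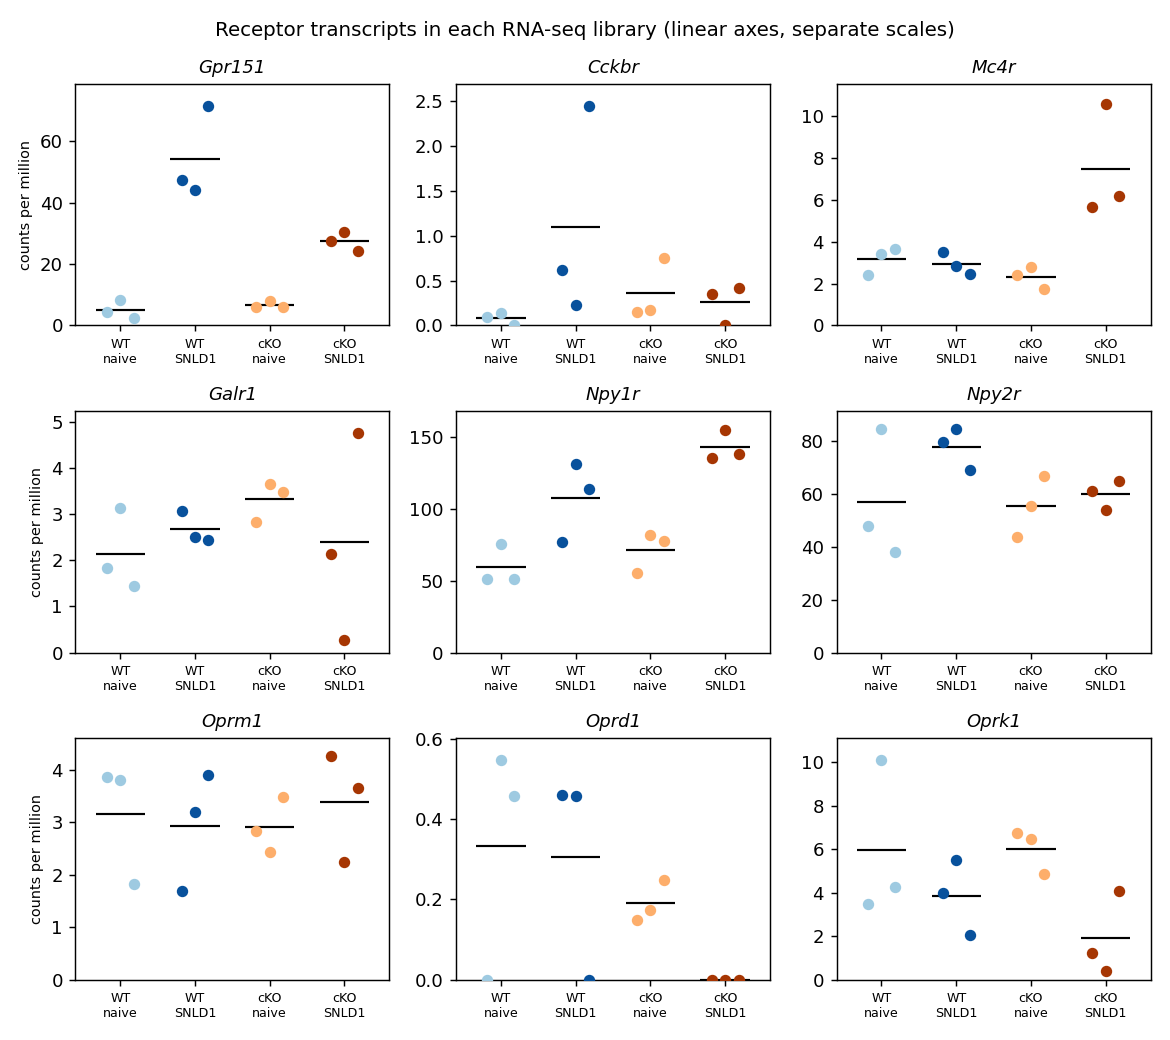
CPM of the 9 receptor genes in each of the 12 RNA-seq libraries, 3 per group, with linear axes that differ between panels; points are libraries and lines are group means. Gpr151 is at 44.1 to 71.6 CPM in injured WT ganglia and at 24.3 to 30.4 CPM in injured Mettl14cKO ganglia, and Mc4r reaches 5.68 to 10.6 CPM in injured Mettl14cKO ganglia.

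Mc4r, the receptor for melanocortins whose inverse agonist is Agrp, separated by condition in Mettl14cKO alone among these libraries. In WT it stood at 2.42, 3.41 and 3.65 CPM in naive and 3.53, 2.86 and 2.44 CPM in injured ganglia, which overlap. In Mettl14cKO the naive values were 2.39, 2.79 and 1.74 CPM and the injured values 5.68, 10.6 and 6.17 CPM, which do not. Mettl14cKO replicate 2 was the highest injured library. The log2 injury effect was -0.11 (SE 0.33) in WT and 1.71 (SE 0.33) in Mettl14cKO, a difference of 1.83 (SE 0.47).

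Of the galanin receptors proper, Galr1, an inhibitory receptor, showed no such separation. It stood at 1.84, 3.14 and 1.44 CPM in WT naive and at 3.07, 2.52 and 2.44 CPM in WT injured ganglia. In Mettl14cKO the values were 2.84, 3.67 and 3.48 CPM, then 2.13, 0.282 and 4.77 CPM after injury, the widest spread of the Galr1 groups. Its log2 injury effects were 0.36 (SE 0.53) and -0.46 (SE 0.54).

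Npy1r, a receptor of peptidergic nociceptors, was higher after injury in both genotypes. The WT libraries were at 50.9, 75.7 and 51.5 CPM in naive and 77.0, 131 and 114 CPM in injured ganglia. The Mettl14cKO libraries were at 55.3, 81.7 and 77.6 CPM and then at 136, 155 and 138 CPM. No injured library overlapped a naive one of its genotype, although the lowest WT injured value lay close to the highest naive value. The log2 effects were 0.86 (SE 0.21) and 0.9996 (SE 0.21), and they differed by 0.14 (SE 0.30).

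Npy2r, the presynaptic NPY receptor, overlapped between conditions in both genotypes. It stood at 48.1, 84.4 and 37.9 CPM in WT naive, 79.6, 84.8 and 69.2 CPM in WT injured, 43.8, 55.5 and 66.7 CPM in Mettl14cKO naive and 61.1, 54.0 and 64.8 CPM in Mettl14cKO injured ganglia. WT naive replicate 2 was as high as the injured libraries. Its log2 injury effects were 0.46 (SE 0.23) and 0.11 (SE 0.24).

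The opioid receptors were at low counts. Oprm1, the mu receptor and main target of morphine, stood at 3.87, 3.82 and 1.82 CPM in WT naive, 1.69, 3.20 and 3.90 CPM in WT injured, 2.84, 2.44 and 3.48 CPM in Mettl14cKO naive and 4.26, 2.25 and 3.65 CPM in Mettl14cKO injured ganglia. All 4 groups overlapped, and the log2 injury effects were -0.07 (SE 0.38) and 0.19 (SE 0.40). Oprk1, the kappa receptor for dynorphins, was at 3.48, 10.1 and 4.26 CPM, then 3.99, 5.49 and 2.07 CPM in WT. In Mettl14cKO it was at 6.73, 6.46 and 4.84 CPM in naive and at 1.24, 0.423 and 4.07 CPM in injured ganglia, where no injured library reached the naive ones. The log2 effects of Oprk1 were -0.59 (SE 0.50) and -1.62 (SE 0.56). The first was -0.0086 without WT naive replicate 2 and -0.96 without WT SNLD1 replicate 2. The second was -2.87 without Mettl14cKO SNLD1 replicate 3, and -1.12 at the other end of the fits without single libraries.

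Oprd1, the delta receptor for enkephalins, and Cckbr, the receptor of cholecystokinin and gastrin, did not pass the filter on low counts in RNA-seq. Oprd1 had 0, 4 and 6 counts in WT naive, 3, 4 and 0 in WT injured, 1, 1 and 2 in Mettl14cKO naive and 0, 0 and 0 in Mettl14cKO injured libraries. In those last 3 libraries 3 counts, the limit that a count of 0 allows, would be 0.533, 0.423 and 0.421 CPM, and counting error is all that this limit covers. At this depth a difference in Oprd1 was not detectable. Cckbr had 1, 1 and 0 counts in WT naive, 4, 2 and 20 in WT injured, 1, 1 and 6 in Mettl14cKO naive and 2, 0 and 3 in Mettl14cKO injured libraries. WT injured replicate 3 alone held 20 of the 26 counts of its group.

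A gene was called where its edgeR quasi-likelihood p, adjusted by Benjamini-Hochberg over all genes tested, was under 0.05. Of the 7 receptors that passed the filter, injury in WT called 1 (Gpr151), beside 1.02% of all 13291 genes tested. Injury in Mettl14cKO called 3 (Gpr151, Mc4r and Npy1r), beside 0.685% of all genes. The members were chosen with these contrasts known, so nothing is read from these counts. The difference between the injury effects called 0 receptors and 0% of all genes, while 492 genes had an unadjusted p under 0.05 and DESeq2 called 3.

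**Figure D2:**
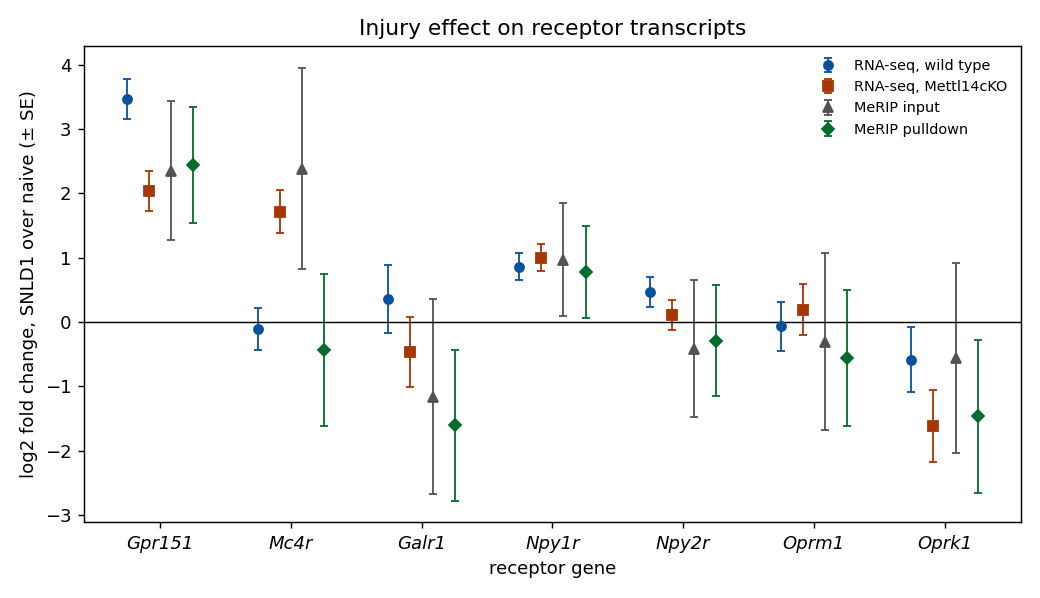
Log2 fold change of SNLD1 over naive for the 7 receptors tested in RNA-seq, with bars of 1 SE, in WT RNA-seq, Mettl14cKO RNA-seq, MeRIP input and MeRIP pulldown. Gpr151 lies between 2.04 and 3.47 in all 4 series, Npy1r between 0.78 and 0.9996, and Mc4r between -0.44 and 2.39.

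The comparison of genotypes asks which transcripts differed between Mettl14cKO and WT libraries. Whether a transcript depends on Mettl14 itself was not tested. In naive ganglia no receptor was called, beside 0.286% of all genes, and Gpr151 had a log2 difference of 0.44 (SE 0.33, edgeR adjusted p = 0.869) and Mc4r of -0.47 (SE 0.34, adjusted p = 0.863). The other 5 lay between -0.08 and 0.68. The contrast in injured ganglia uses libraries whose injury effects were known when the receptors were chosen, so it is no independent test of them. In injured ganglia 1 of the 7 was called, beside 1.46% of all genes. Mc4r was 1.36 higher on the log2 scale in Mettl14cKO (SE 0.32, edgeR adjusted p = 0.0418), with all 3 knockout libraries above all 3 WT libraries. The summed fibroblast markers separated in the same direction. They did so in naive ganglia too (1976 to 3374 CPM in Mettl14cKO, 1720 to 1937 CPM in WT), where Mc4r overlapped. Their part in the Mc4r values was not tested. Without single libraries the adjusted p of Mc4r ran from 0.0381 to 0.236, and Mc4r passed in 7 of 12 fits. It was lost without any of WT SNLD1 replicates 1, 2 and 3 (adjusted p = 0.0729, 0.100 and 0.191) and without Mettl14cKO SNLD1 replicates 1 or 2 (0.0889 and 0.236), edgeR throughout.

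Gpr151 was lower in injured Mettl14cKO ganglia by a log2 value of -0.99 (SE 0.27, edgeR adjusted p = 0.0786), and DESeq2 gave an adjusted p of 0.0269. These contrasts share the injured libraries with the injury effects in which Mc4r and Gpr151 stood out, so they are no independent evidence. In injured ganglia the other receptors had log2 differences of 0.41 (SE 0.21, adjusted p = 0.382) for Npy1r, -0.38 (SE 0.23) for Npy2r, -0.15 (SE 0.55) for Galr1, 0.18 (SE 0.39) for Oprm1 and -0.98 (SE 0.57) for Oprk1. Averaged over conditions no receptor was called, beside 3.33% of all genes. The lowest adjusted p in that average was 0.238, for Npy1r (log2 0.34, SE 0.15).

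The ligands of these receptors were compared in the same fits. Of the 11 listed, 10 were in the table and 5 were tested: Gal, Npy, Pomc, Agrp and Penk. Galp and Pyy had 0 counts in every RNA-seq library, and Cck had at most 1. None of the 5 was called for injury in either genotype. Gal, the peptide ligand of Galr1, stood at 114, 239 and 105 CPM in WT naive and 233, 204 and 374 CPM in WT injured ganglia, and at 127, 143 and 90.1 CPM and then 137, 154 and 116 CPM in Mettl14cKO. Its WT groups overlapped through naive replicate 2, and without that library its log2 injury effect went from 0.82 (edgeR adjusted p = 0.299) to 1.30 (0.0137). Averaged over conditions, 1 ligand was called higher and 1 lower in Mettl14cKO. Agrp, the inverse agonist of Mc4r, was higher by log2 1.12 (SE 0.28, edgeR adjusted p = 0.0325) and kept its call in 4 of 12 fits without 1 library, those without WT naive 1, WT SNLD1 2, Mettl14cKO naive 1 or Mettl14cKO SNLD1 3 (adjusted p up to 0.105 otherwise). Npy was lower by log2 -1.73 (SE 0.45, edgeR adjusted p = 0.0408) and kept it in 3 such fits, without WT naive 1, WT SNLD1 2 or Mettl14cKO SNLD1 2 (adjusted p up to 0.138 otherwise).

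Agrp stood at 3.09, 1.77 and 1.75 CPM in WT naive, 2.45, 2.86 and 1.46 in WT injured, 2.54, 5.41 and 4.35 in Mettl14cKO naive and 7.46, 6.62 and 3.51 CPM in Mettl14cKO injured ganglia. Npy stood at 0.484, 3.0 and 5.47 CPM, 7.97, 3.43 and 9.64 CPM, 0.747, 1.22 and 1.12 CPM, and 1.60, 2.96 and 0.982 CPM in the same order of groups. The injured groups of Agrp and of Npy did not overlap between genotypes, and the naive groups of both did.

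Among 56 other peptide receptors, 24 were tested. For injury, 0 were called in WT and 1 in Mettl14cKO, Avpr1a, the vasopressin V1a receptor, at log2 1.92 (SE 0.37, edgeR adjusted p = 0.0165), with 1.59 (SE 0.38, adjusted p = 0.0543) in WT. The Mettl14cKO call was lost without Mettl14cKO naive replicates 1 or 3 or SNLD1 replicates 1 or 2 (adjusted p up to 0.0981). The median log2 of the 24 was -0.19 in WT and -0.30 in Mettl14cKO, beside -0.01 and 0.01 for all genes. Of 33 genes for receptor coupling and desensitisation, such as G protein subunits, RGS proteins and arrestins, 27 were tested, and 0 were called in any of the 6 RNA-seq contrasts. Their medians were -0.04 and -0.11 for injury in WT and Mettl14cKO.

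By the Pearson correlation of log2 CPM over the 12 RNA-seq libraries, the genes most like Gpr151 among 13290 were Flrt3 (0.976), Ugdh (0.973) and Zfp729b (0.970). The genes most like Npy1r were Nt5e (0.963), Tax1bp3 (0.935) and Clp1 (0.932), and those most like Oprk1 were Kcna4 (0.959), Lrrc57 (0.948) and Lrrc19 (0.940). For Mc4r they were Ttc1 (0.917), Polr2c (0.889) and Pradc1 (0.889). The libraries share condition, genotype and depth, and these values are descriptions.

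The MeRIP inputs hold the WT injury comparison in libraries that the RNA-seq table does not hold. Whether they came from other mice is not said in the labels. All 9 receptors passed the filter on low counts in MeRIP. Gpr151 was at 7.08 and 17.6 CPM in naive and 80.8 and 46.1 CPM in injured inputs, without overlap, and at 5.30, 33.9 and 3.64 CPM in naive and 60.0, 108 and 53.7 CPM in injured pulldowns, also without overlap. Its log2 injury effect was 2.35 in input (SE 1.09, 95% interval 0.06 to 4.65) and 2.43 in pulldown (SE 0.90, 95% interval 0.53 to 4.34), with an edgeR adjusted p of 1 in both. Npy1r was at 95.4 and 61.9 CPM in naive and 210 and 98.8 CPM in injured inputs (log2 0.97, SE 0.88). These did not overlap, but the lower injured value lay close to the higher naive one. The 210 CPM rested on 177 counts in a library of 927807. The Npy1r pulldowns overlapped, at 118, 165 and 44.2 CPM in naive and 262, 192 and 107 CPM in injured ganglia. Mc4r, at 1.42 and 0.202 CPM in naive and 7.13 and 2.09 CPM in injured WT inputs, had a log2 effect of 2.39 (SE 1.57) that rested on 2 to 34 counts per library. Neither injury comparison called a receptor, beside 0% of all 14705 genes in input and 0% in pulldown. There 126 and 124 genes had an unadjusted p under 0.05, and DESeq2 called 1 and 8. The median SE over all genes was 1.17 in input and 0.96 in pulldown, against 0.24 for injury in the WT RNA-seq.

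**Figure D3:**
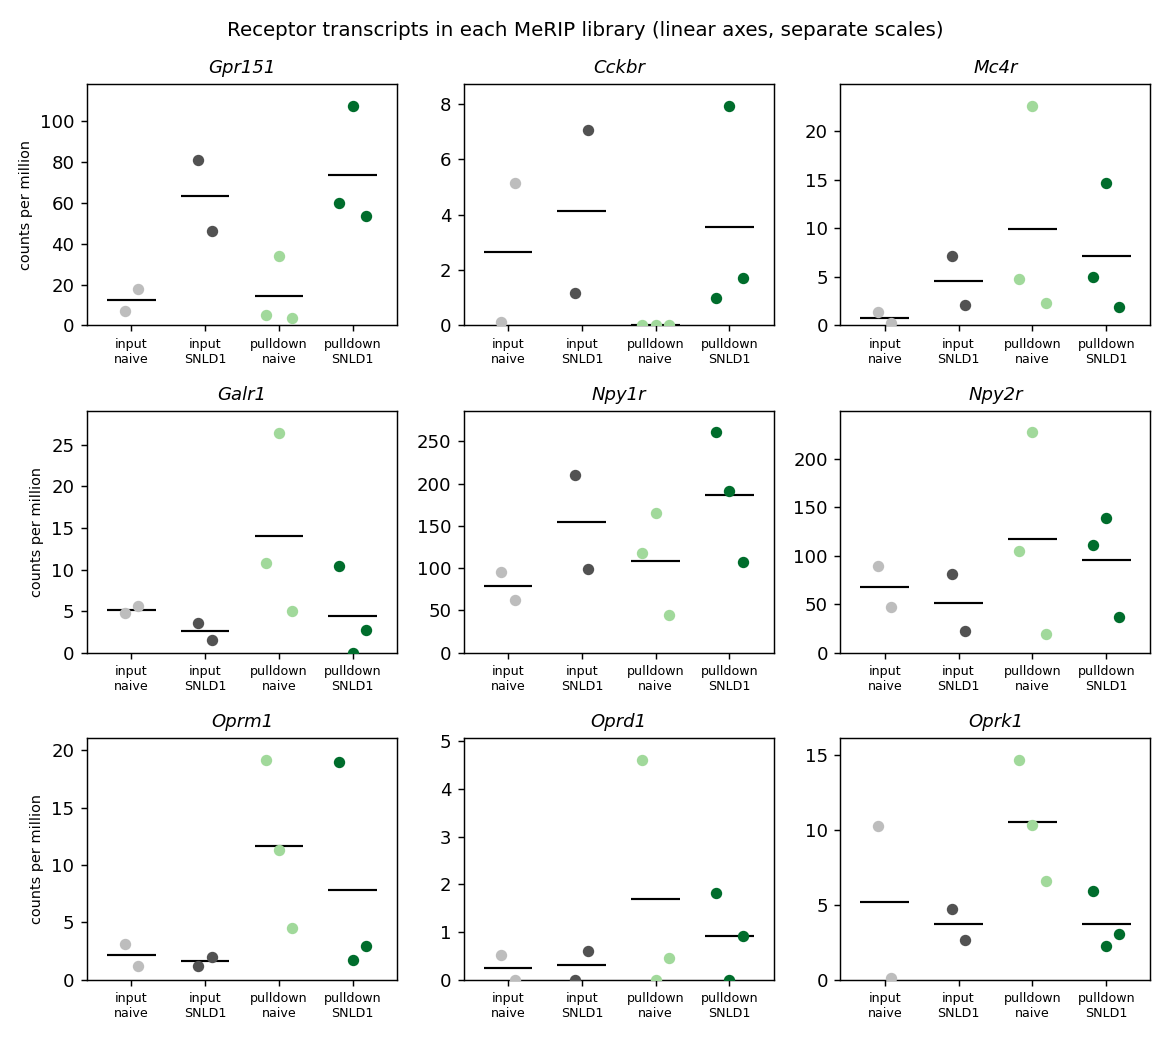
CPM of the 9 receptor genes in each MeRIP library, with 2 input and 3 pulldown libraries per condition, linear axes that differ between panels, points as libraries and lines as group means. Gpr151 is at 3.64 to 33.9 CPM in naive pulldowns and at 53.7 to 108 CPM in injured ones, and Cckbr is at 0 in all 3 naive pulldowns.

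Pulldown over input, a relative measure of m6A in a transcript, called no receptor and 0% of all genes in naive, 0% in SNLD1 and 0% for the change between them. At an unadjusted p under 0.05 there were 915, 608 and 30 genes, and DESeq2 called 5, 0 and 0. With the replicate number as a block, 48 genes were called higher and 1030 lower in naive, and 44 and 892 in SNLD1, with no receptor among them. That block gives inputs and pulldowns a shared replicate effect, and pulldown replicate 3 has no input of its number. Same-numbered inputs and pulldowns did not deviate together (r = -0.222 and -0.289 in naive, -0.0173 and -0.0746 in SNLD1). Nothing is read from these block calls. In both conditions 8 of the 9 receptors had a fitted ratio above 0, with a median log2 of 1.03 in naive and 0.72 in SNLD1, beside 0.07 and 0.10 for all genes. The share of all genes above 0 was 51.8% and 52.7%.

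Oprm1 was at 3.09 and 1.21 CPM in naive inputs and 19.2, 11.3 and 4.56 CPM in naive pulldowns, without overlap, and at 1.19 and 2.03 CPM and then 19.0, 1.70 and 2.96 CPM at SNLD1, with overlap. The log2 ratios were 2.44 (SE 1.30, edgeR adjusted p = 0.710) and 2.20 (SE 1.34, adjusted p = 0.791), neither of them called. The SNLD1 ratio of Oprm1 was 0.47 without pulldown replicate 1, the library at 19.0 CPM. Mc4r had 3.54 (SE 1.53, 95% interval 0.30 to 6.79, edgeR adjusted p = 0.710) in naive, where 1 input held 2 counts, and 0.72 (SE 1.40) at SNLD1. Gpr151 was near 0, at 0.14 (SE 0.96) and 0.22 (SE 0.95). Npy1r had 0.47 (SE 0.81) and 0.28 (SE 0.81), and Npy2r 0.78 (SE 0.99) and 0.91 (SE 0.998). For Galr1 the ratios were 1.41 (SE 1.33) and 0.97 (SE 1.42). Oprd1 and Oprk1 rested on inputs of 0 to 10 counts and of 1 to 80 counts. Cckbr had 1 and 51 counts in the naive inputs and 0 in each naive pulldown, where 3 counts would be 0.234, 2.83 and 0.683 CPM, and 6, 14 and 15 counts in the injured pulldowns.

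Of the 9 receptors, 5 had a base in the miCLIP lists, 2 of them in naive and 5 in SNL. Over the 23204 table symbols with a span in the annotation, 19.4% had a site in naive and 22.3% in SNL, and 26.9% in either. The family held 12 sites, 3 naive and 9 SNL, and none was in both lists; of all sites, 26.5% of the naive list and 20.5% of the SNL list were shared. All 12 had 1 mutated read, as did 90.2% of naive and 89.7% of SNL sites, and 9 of the 12 had 2 reads in all. With 1 library per condition a site in 1 list only shows no change.

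Oprd1 had the most sites with 4, at chr4:132113527 and chr4:132117131 in naive, both named with the letters TGACC, and at chr4:132113244 (GAACA) and chr4:132113783 (GGACA) in SNL. Each of the 4 had 2 reads, 1 of them mutated, and Oprd1 had only 0 to 6 counts in any RNA-seq library. Npy1r had 3 in SNL, at chr8:66697158 (TGACT), chr8:66703889 (TAACT) and chr8:66705325 (TGACT). Npy2r had chr3:82541027 (GGACC) in naive and chr3:82540668 (TGACC) in SNL, and Oprm1 had chr10:6789011 (TAACC) in SNL. Each of these 10 sites lay on the strand of its gene, within the gene's GRCm38.p6 span. Exon and UTR positions were not used here. The TAACC site of Oprm1 lies outside the overlapping gene Ipcef1. The span of Oprd1 also overlaps another gene, n-TAcgc3.

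RefSeq windows of 250 bases before a listed start (GRCm38.p6) were at hand for Npy1r, Npy2r, Oprm1 (3 windows), Oprd1 and Cckbr, 7 in all. Of these, 5 overlap the annotated span of their own gene, those of Npy1r and Npy2r among them, so another transcript of the gene may start before the start used. They were searched on both strands for TGACTCA, the AP-1 motif, and for TGACGTCA, the cyclic AMP response element. TGACTCA was found in the Npy1r window and in 4.46% of all 32851 windows, and TGACGTCA in none of the 7 and in 1.55% of all. The match is shown within a stretch of 30 bases in all (chr8:66697180-66697209, plus strand). In capitals and read on the other strand, the match lies at -231 to -225 from the listed start, inside the gene span. It lies close to the Npy1r miCLIP site at chr8:66697158. A match is a description and not a binding site, and Gpr151 and Mc4r were not searched.
Npy1r: tgcgccttgctTGAGTCAaggactagtggg

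The 2 sites of Gpr151, both in SNL, were covered by 4 and 3 reads, the deepest of the family together with 1 Npy1r site of 3 reads. The injured list comes from the condition in which Gpr151 RNA was higher, and the part of RNA level in its sites was not tested. Cckbr, Mc4r, Galr1 and Oprk1 had no site in either list.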

How the data were processed

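RNA-seq (12 libraries), MeRIP-seq (10) and miCLIP (2) of mouse ganglia were used. The deposited RNA-seq and MeRIP tables hold whole-number counts per gene symbol, without normalization. The deposited miCLIP lists give each site a value of unit other, the mutated reads divided by all reads (tolerance 1e-05). Per the submitters' processing notes Trimmomatic, STAR, DESeq2 and mm10 were used; what counted reads and called sites was not given in the sources used here. Here, edgeR 4.0.16 (R 4.3.3; filterByExpr, TMM, quasi-likelihood test) was fitted over all libraries of a table, and 13291 RNA-seq and 14705 MeRIP genes were kept. The SE is the log2 value over the square root of F. CPM are TMM-scaled. DESeq2 1.42.0, no filter, only the groups compared, a replicate block and each library left out were alternatives. Genes named beyond the receptors are, per list, up to 3 with the lowest p, and the 3 most correlated genes. The members and lists were chosen with earlier results of these data known. Same-numbered pulldown libraries deviated together between conditions (r = 0.682, 0.468 and 0.734). The main fits used no pairing in either table, so the pulldown injury effects above are unpaired. Replicate numbers entered only as a block in the alternatives. The script was tested on simulated data.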

Additional observations from a re-analysis of the deposited data

How the results depend on the processing

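Of 167 alternative values of the counts of called receptors or of receptors with a site, 147 stayed within 1.5 times the value reported. Of 1025 for single genes, 940 were counted as the same. For values given with a test, that meant the same direction and side of the threshold. For values given as descriptions, it meant a shift below the standard deviation of log2 CPM within groups. The sign of an uncalled description could therefore change and still count as the same. Injury in WT called 2 receptors with DESeq2, without the filter and with the replicate block (Gpr151 and Npy1r), beside 211, 256 and 155 of all genes, and 1 to 3 without single libraries. Injury in Mettl14cKO called 1 to 4 without single libraries: Mc4r missed without naive 1, naive 3 or SNLD1 2, and Npy1r without any naive library or SNLD1 1 or 2. The difference of injury effects called 1 without the filter (Gpr151), beside 24 of all genes. Genotype in SNLD1 called 2 with DESeq2 and without the filter, beside 416 and 570 of all genes, and 0 to 2 without single libraries. Receptors with a site fell from 5 to 0 at 3 or more mutated reads. Npy2r in naive genotype reversed to 0.0041 with the replicate block. Without single libraries, log2 values changed sign for genotype in naive of Npy2r (-0.26 to 0.37), Oprm1 (-0.39 to 0.11) and Oprk1 (-0.23 to 0.62), and for genotype in SNLD1 of Oprm1 (-0.078 to 0.43) and Galr1 (-1.20 to 0.40). The same held for pulldown over input of Gpr151 in naive (-1.45 to 0.94) and in SNLD1 (-0.19 to 0.67), of Mc4r in SNLD1 (-0.34 to 1.74), and for injury of Mc4r in the pulldown (-1.47 to 0.96). Among injury effects, Galr1 in Mettl14cKO (-1.52 to 0.078), Oprm1 in WT (-0.38 to 0.19), Mc4r in WT (-0.28 to 0.016), Npy2r in Mettl14cKO (-0.029 to 0.28) and the difference for Npy1r (-0.069 to 0.31) also changed sign. The cause was not tested. With only the 2 groups compared, edgeR's adjusted p for genotype in SNLD1 was 0.0761 for Mc4r and 0.0454 for Gpr151. A block on paired pulldowns alone, chosen after seeing the data, gave Gpr151 a log2 injury effect of 3.01 (edgeR adjusted p = 0.269). In RNA-seq the samples share only a number. The m6A comparisons are limited by their spread, with a median SE over all genes of 1.075 in naive and 1.085 in SNLD1 for pulldown over input. The part of MeRIP depth in that spread was not tested.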
